A study of Mus musculus with 4 samples.

Results

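Collagen chain genes encode the subunits of the collagens, and 44 of the 55536 rows of the deposited gene table belong to them. They were chosen by symbol alone, as rows named Col, digits, the letter a and digits, and they cover 27 collagen types. Expression was measured by RNA sequencing of the stromal vascular fraction (what is left of digested fat once adipocytes float off) of inguinal white fat from wild type male mice at postnatal day 21. There were 4 libraries, each from a pool of 3 mice: ObF1 with 1,3BD, LnF1 with 1,3BD, ObF1 with water and LnF1 with water. The series title concerns parental obesity, and ObF1 and LnF1 are offspring names used as the labels write them. Water and 1,3BD are the treatments in the sample titles, which give no dose, route or duration. Each combination is 1 library, so no value has a replicate within its group. The age, tissue, genotype and sex are shared by all 4 groups, and strain is not given in the sources used here. In a pool of cells, fewer cells of a type and less RNA per cell cannot be told apart.

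Collagens are extracellular proteins in which 3 chains wind into a triple helix, and each chain is rich in glycine. The fibrillar types form the load-bearing fibres of connective tissue. Fibril-associated types sit on the fibre surface, beaded type VI forms microfilaments around cells, and type IV forms the sheet of basement membranes. In fat, collagens of fibroblasts and progenitor cells make up the bed in which adipocytes expand, and type VI is abundant there.

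Values are in scaled CPM, read counts divided by a factor per library that the authors set, with 25432747 and 24586827 recovered reads in ObF1 and LnF1 with 1,3BD, and 26000090 and 24804006 in ObF1 and LnF1 with water. The 9 fibroblast and adipose progenitor markers summed to 1145 CPM in ObF1 and 897 CPM in LnF1 with 1,3BD, against 1953 CPM in ObF1 and 2084 CPM in LnF1 with water. Over all genes tested, 24.8% fell and 19.2% rose with 1,3BD. Of the 7 progenitor markers tested, 2 (28.6%) fell, 0 rose and 5 did not pass, with a median log2 difference of -0.70. Pdgfrb, with 154 CPM in ObF1 and 157 CPM in LnF1 with 1,3BD, against 716 CPM in ObF1 and 538 CPM in LnF1 with water, and Thy1 were those that fell. Pdgfra, a marker of adipose progenitors, had 412 CPM in ObF1 and 281 CPM in LnF1 with 1,3BD, against 236 CPM in ObF1 and 243 CPM in LnF1 with water, and did not pass. The 6 smooth muscle and myofibroblast markers, which include Acta2 for smooth muscle actin, moved with 1,3BD: their summed level was 245 CPM in ObF1 and 173 CPM in LnF1 with 1,3BD, against 10678 CPM in ObF1 and 9870.3 CPM in LnF1 with water, and 6 of 6 passed as lower. The 7 endothelial markers summed to 5.70 CPM in ObF1 and 3.59 CPM in LnF1 with 1,3BD, against 30.8 CPM in ObF1 and 27.3 CPM in LnF1 with water. The 6 white blood cell markers summed to 6.19 CPM in ObF1 and 2.58 CPM in LnF1 with 1,3BD, against 13.5 CPM in ObF1 and 17.4 CPM in LnF1 with water. Epcam of epithelium and Adipoq of mature adipocytes had 0 reads in all 4 libraries and Ptprc, the common leukocyte antigen, had at most 0.150 CPM. Of the 5 mature adipocyte markers, Fabp4 of fatty acid transport and Plin1 of the lipid droplet passed as higher and Adipoq and Lep were at 0; the sum was 153 CPM in ObF1 and 228 CPM in LnF1 with 1,3BD, against 8.56 CPM in ObF1 and 6.03 CPM in LnF1 with water. The 5 skeletal muscle markers summed to 2.77 CPM in ObF1 and 2.08 CPM in LnF1 with 1,3BD, against 80.7 CPM in ObF1 and 90.5 CPM in LnF1 with water. Most of this came from Acta1, with 61.8 CPM in ObF1 and 86.5 CPM in LnF1 with water. Ckm, Myh4 and Myod1 had at most 2 reads in any library. The 4 tendon markers summed to 81.97 CPM in ObF1 and 50.5 CPM in LnF1 with 1,3BD, against 295 CPM in ObF1 and 261 CPM in LnF1 with water. Most of this came from Fmod, with 282 CPM in ObF1 and 222 CPM in LnF1 with water, and Scx and Mkx were not tested. The 4 pericyte markers summed to 2.14 CPM in ObF1 and 5.67 CPM in LnF1 with 1,3BD, against 13.03 CPM in ObF1 and 14.9 CPM in LnF1 with water, with Rgs5 and Cspg4 passed as lower. The 6 cartilage markers summed to 10.8 CPM in ObF1 and 9.14 CPM in LnF1 with 1,3BD, against 35.5 CPM in ObF1 and 64.5 CPM in LnF1 with water, nearly all from Sox9, which passed as lower. Mitochondrial genes gave 5.80% of reads in ObF1 and 2.78% in LnF1 with 1,3BD, against 1.30% in ObF1 and 1.128% in LnF1 with water. The part of these differences in the collagen results was not tested.

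Of the 44 members, 28 reached at least 1 CPM in at least 2 libraries and were tested together with all other such genes, 12838 in all. The other 16 stayed at or below 1.90 CPM in every library. A gene can meet the limit of 1 CPM through the 2 libraries of 1 treatment alone, and its call is then partly set by entry. This was so for Col8a2 (water) and Col4a4 (1,3BD), and for the markers Cspg4 (water) and Plin1 (1,3BD) named above. Log2 differences are from limma on log2(CPM + pseudocount) with their standard error (SE). The SE starts from how far a difference failed to repeat, in the other parental group for treatment and in the other treatment for parents. With 1 residual degree of freedom, limma moves it toward the error typical of genes at a similar level. For Col6a1, the differences of -0.42 in ObF1 and -0.40 in LnF1 thus came with an SE of 0.21. An adjusted p under 0.05 over all genes tested counts as passed.

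The first comparison asked how 1,3BD differs from water. Of the 28 collagen chain genes tested, 16 fell with 1,3BD, 2 rose and 10 did not pass. Over all genes tested, 24.8% fell and 19.2% rose. The median log2 difference of the 28 was -0.91, and that of all genes tested was -0.06. In either direction 18 passed, where 44.0% of all genes did. Both 1,3BD libraries were below both water libraries for 19 of the 28, and above them for 3, where the shares over all genes were 38.2% and 33.8%. Of the 16 that fell, 15 had groups that did not overlap, and Col27a1 was the exception. A call favours differences that repeat in both parental groups, so this lack of overlap is partly set by the call. The scaling bears on these counts. With plain library totals, which move the median of all genes to 0.19, 12 members fell and 3 rose, and over all genes 3663 rose and 2283 fell, against 2466 and 3189 with the authors' scaling. No member that passed changed direction under any alternative run. Among the 26 members with a mean of at least 5 CPM, 16 were at least 2-fold lower with 1,3BD in ObF1 and 1 was at least 2-fold higher, against 17.4% and 10.7% of all such genes. In LnF1 11 were at least 2-fold lower and 3 higher, against 14.2% and 8.86%. In both parental groups 10 were 2-fold lower and 1 higher, against 10.9% and 5.92%. Leaving out the ObF1 water library, which also takes parents out of the model, left 9 members that fell and 1 that rose, and over all genes 1326 fell and 817 rose in that fit.

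The share of all reads that came from the 44 members was 2.46% in ObF1 and 3.47% in LnF1 with 1,3BD, against 5.97% in ObF1 and 5.51% in LnF1 with water. Both 1,3BD libraries had the lower shares. The 95% Clopper-Pearson intervals, which cover counting error only, were 2.46 to 2.47% and 3.47 to 3.48% for ObF1 and LnF1 with 1,3BD, and 5.96 to 5.98% and 5.50 to 5.52% for ObF1 and LnF1 with water. An exact permutation test of 2 against 2 libraries cannot give a two-sided p below 0.333, which is what it gave here.

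**Figure D1:**
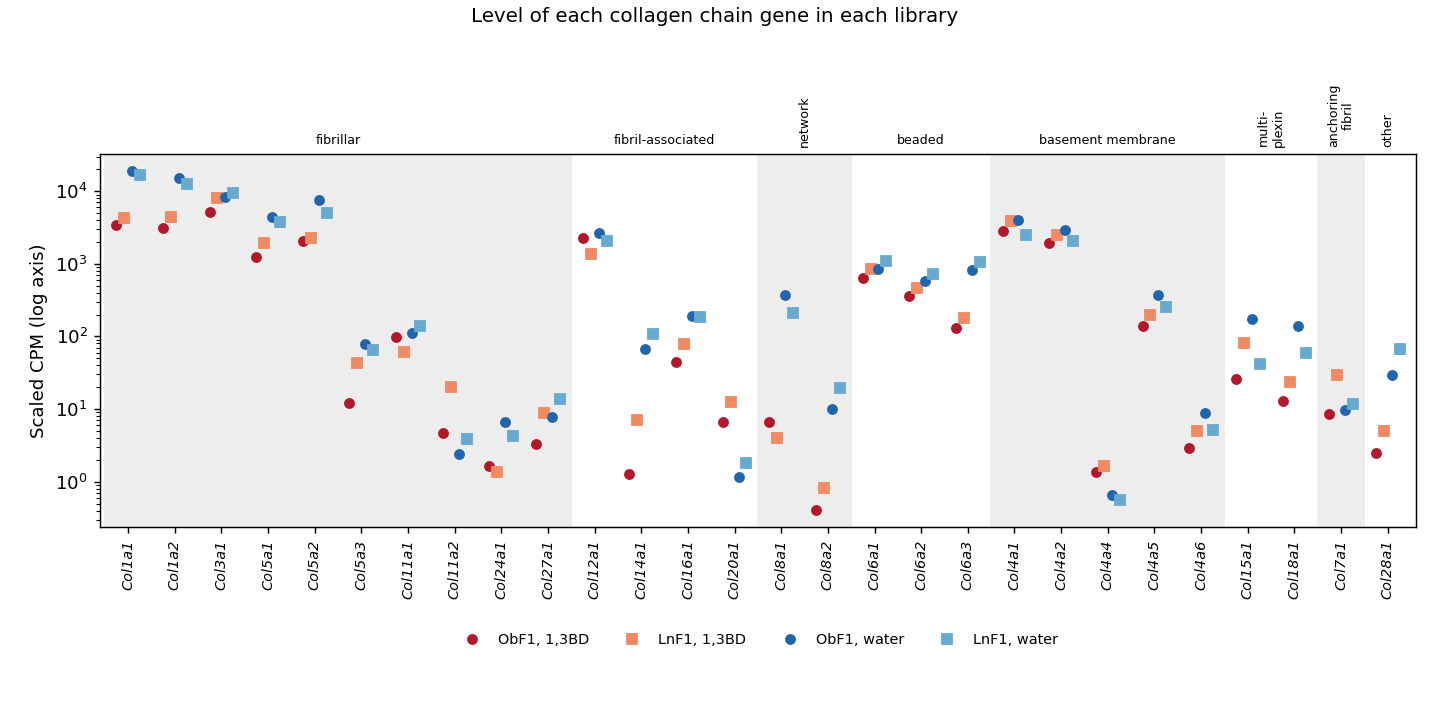
Scaled CPM on a log axis of the 28 collagen chain genes tested, 1 point for each library, grouped by class. Most fibrillar genes lie lower in both 1,3BD libraries than in both water libraries, as do Col8a1 and Col8a2 of the network class and Col14a1 of the fibril-associated class, while Col4a1 and Col4a2 of the basement membrane overlap.

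Fibrillar chains held most collagen reads and fell in 7 of 10 tested, with 1 higher and 2 that did not pass. The shares to set beside this and each class below are 24.8% lower and 19.2% higher over all genes tested. Type I, the main fibre of skin, bone and fat stroma, is assembled from the products of Col1a1 and Col1a2. Col1a1 (chromosome 11, 94936224 to 94953042, plus strand, GRCm38) had 3371 CPM in ObF1 and 4307 CPM in LnF1 with 1,3BD, against 18761 CPM in ObF1 and 16522 CPM in LnF1 with water. The 2 water libraries stood close together and far above both 1,3BD libraries. This was a 4.62-fold fall (log2 difference -2.21, SE 0.28, limma adjusted p = 0.000119). Col1a2 (chromosome 6, 4504814 to 4541544, plus strand) had 3097 CPM in ObF1 and 4391 CPM in LnF1 with 1,3BD, against 15017 CPM in ObF1 and 12698 CPM in LnF1 with water, a 3.74-fold fall (log2 difference -1.90, SE 0.28, limma adjusted p = 0.000377). In both genes the ObF1 library was the lower of the 1,3BD pair and the higher of the water pair.

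Col3a1, the single chain of type III, which mixes with type I in soft tissue, had 5239 CPM in ObF1 and 7941 CPM in LnF1 with 1,3BD, against 8263 CPM in ObF1 and 9399.8 CPM in LnF1 with water. Both 1,3BD libraries lay below both water libraries, but the difference did not pass (log2 difference -0.45, SE 0.27, limma adjusted p = 0.194), with a 95% interval of -1.04 to 0.14. Among the alternatives it passed in 1, without a filter on low values (limma adjusted p = 0.0488). The interval of Col3a1 does not reach the estimates for Col1a1 or Col1a2, although the difference between these genes was not itself tested. Per kilobase of exon, Col1a1 had the highest level of any member in the water libraries and Col3a1 in the 1,3BD libraries: in CPM per kilobase, Col3a1 stood at 942 in ObF1 and 1427 in LnF1 with 1,3BD, against 1485 in ObF1 and 1689 in LnF1 with water. The ratio of Col3a1 to Col1a1 per kilobase was 1.66 in ObF1 and 1.97 in LnF1 with 1,3BD, against 0.469 in ObF1 and 0.606 in LnF1 with water.

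Type V chains, which nucleate type I fibrils and limit their width, moved in the direction of type I. Col5a2 had 2040.2 CPM in ObF1 and 2286 CPM in LnF1 with 1,3BD, against 7553 CPM in ObF1 and 4956 CPM in LnF1 with water, a 2.83-fold fall (log2 difference -1.502, SE 0.27, limma adjusted p = 0.00124). Col5a1 had 1233 CPM in ObF1 and 1947 CPM in LnF1 with 1,3BD, against 4427 CPM in ObF1 and 3798 CPM in LnF1 with water, a 2.65-fold fall (log2 difference -1.40, SE 0.27, limma adjusted p = 0.00191). Neither gene had overlapping groups. Without the ObF1 water library Col5a1 and Col5a2 no longer passed. Col5a3 had 12.3 CPM in ObF1 and 43.5 CPM in LnF1 with 1,3BD, against 77.7 CPM in ObF1 and 64.4 CPM in LnF1 with water; its ObF1 1,3BD library stood far below the other 3, and the difference did not pass (log2 difference -1.61, SE 0.54, limma adjusted p = 0.0762). It passed in 6 alternatives, among them moderation that is not robust (limma adjusted p = 0.00521) and DESeq2 (adjusted p = 0.000589).

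The minor fibrillar types were split. Col24a1 had 1.65 CPM in ObF1 and 1.36 CPM in LnF1 with 1,3BD, against 6.56 CPM in ObF1 and 4.202 CPM in LnF1 with water, a 3.38-fold fall (log2 difference -1.76, SE 0.37, limma adjusted p = 0.00297), which did not pass without the ObF1 water library. Col27a1, known from cartilage, fell 1.89-fold (log2 difference -0.92, SE 0.29, limma adjusted p = 0.0254) and had 3.34 CPM in ObF1 and 8.82 CPM in LnF1 with 1,3BD, against 7.82 CPM in ObF1 and 13.7 CPM in LnF1 with water; the LnF1 1,3BD library lay above the ObF1 water library, and 6 of 13 alternative settings did not pass it. Type XI, a close relative of type V, gave opposite results for its chains. Col11a1 had 98.5 CPM in ObF1 and 61.6 CPM in LnF1 with 1,3BD, against 112 CPM in ObF1 and 140.0 CPM in LnF1 with water, a small fall (log2 difference -0.68, SE 0.25, limma adjusted p = 0.0469) that 9 of 13 alternatives did not pass. Col11a2 had 4.61 CPM in ObF1 and 20.01 CPM in LnF1 with 1,3BD, against 2.43 CPM in ObF1 and 3.86 CPM in LnF1 with water, and rose 3.08-fold (log2 difference 1.63, SE 0.38, limma adjusted p = 0.00602). The log2 difference was 0.90 in ObF1 and 2.35 in LnF1, and the rise did not pass with parents left out of the model (limma adjusted p = 0.0950), nor in fits that also left out the LnF1 1,3BD, ObF1 water or LnF1 water library. Col2a1, the fibrillar collagen of cartilage, never exceeded 11 reads and was not tested.

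**Figure D2:**
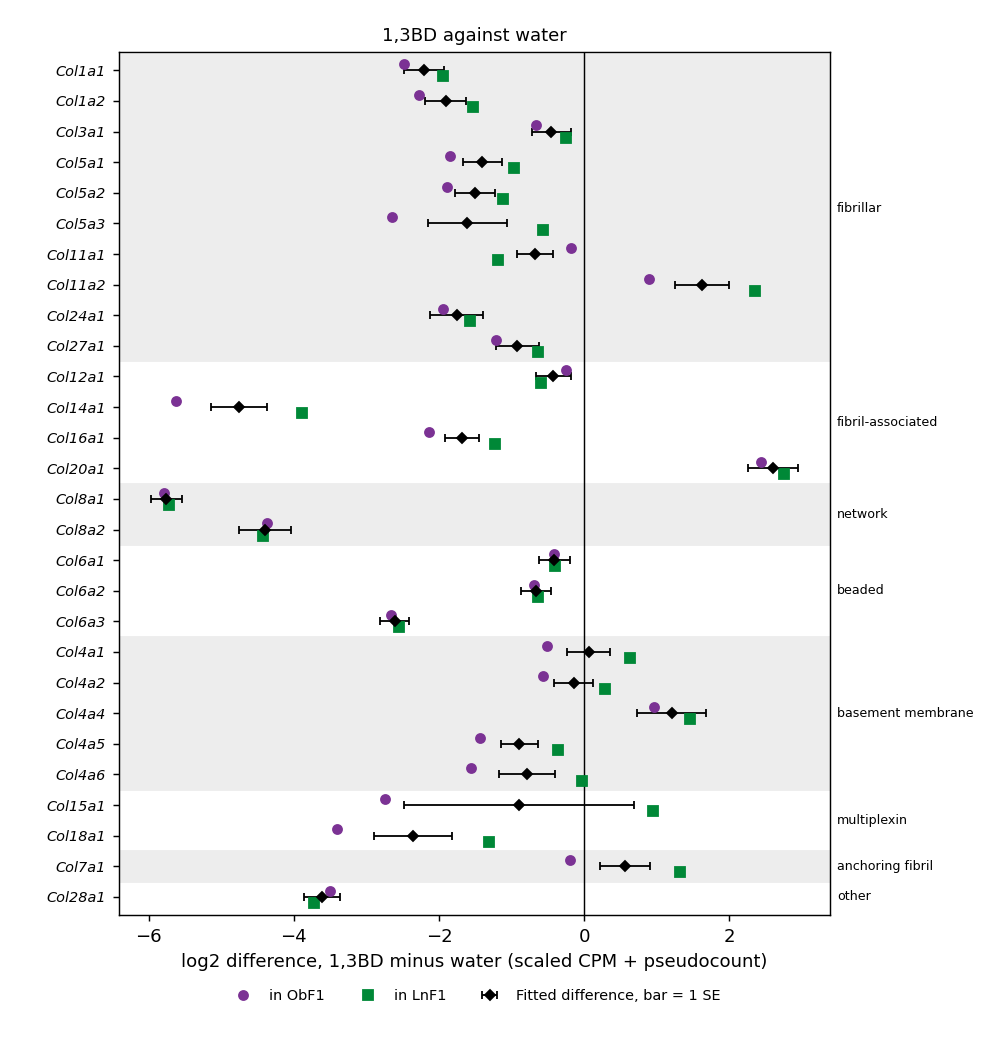
The log2 difference of 1,3BD minus water for each tested member, with circles for ObF1, squares for LnF1 and a diamond with 1 SE for the fitted value. Col8a1, Col14a1, Col8a2 and Col28a1 lie farthest to the left, Col20a1 and Col11a2 lie to the right of 0, and in 24 of 28 members the ObF1 point lies to the left of the LnF1 point.

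Fibril-associated chains, which bridge fibrils and other matrix proteins, fell in 2 of 4 tested, rose in 1 and did not pass in 1. Col14a1 (chromosome 15, 55307750 to 55520803, plus strand) is a regulator of fibril growth. It had 1.27 CPM in ObF1 and 7.17 CPM in LnF1 with 1,3BD, against 66.8 CPM in ObF1 and 108 CPM in LnF1 with water. The 1,3BD libraries were both low, and differed from each other as well. It fell 27.1-fold (log2 difference -4.76, SE 0.39, limma adjusted p = 5.38e-05). Col16a1 had 43.8 CPM in ObF1 and 78.2 CPM in LnF1 with 1,3BD, against 193 CPM in ObF1 and 183 CPM in LnF1 with water, a 3.21-fold fall (log2 difference -1.68, SE 0.24, limma adjusted p = 0.000323). Col12a1, the most abundant of the class, had 2253 CPM in ObF1 and 1355 CPM in LnF1 with 1,3BD, against 2668 CPM in ObF1 and 2052 CPM in LnF1 with water. The ObF1 1,3BD library lay between the water libraries, and the difference did not pass (log2 difference -0.42, SE 0.24, limma adjusted p = 0.169), with an interval of -0.94 to 0.10. Col20a1 went the other way, with 6.71 CPM in ObF1 and 12.5 CPM in LnF1 with 1,3BD, against 1.17 CPM in ObF1 and 1.78 CPM in LnF1 with water, a 6.06-fold rise (log2 difference 2.60, SE 0.34, limma adjusted p = 0.000175). Its exons overlap those of BX649560.1 on the same strand, so reads of these 2 genes cannot be told apart with certainty.

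Both tested chains of network-forming type VIII, which is made by vascular smooth muscle and by the corneal endothelium, fell with 1,3BD. Col8a1 (chromosome 16, 57624258 to 57754737, minus strand) had 6.64 CPM in ObF1 and 3.94 CPM in LnF1 with 1,3BD, against 372 CPM in ObF1 and 213 CPM in LnF1 with water. It fell 54.1-fold (log2 difference -5.76, SE 0.21, limma adjusted p = 3.62e-08), the largest fall among the 28 members tested. Col8a2 had 0.412 CPM in ObF1 and 0.825 CPM in LnF1 with 1,3BD, against 10.1 CPM in ObF1 and 19.4 CPM in LnF1 with water, a 21.1-fold fall (log2 difference -4.40, SE 0.36, limma adjusted p = 6.00e-06). Its 1,3BD values rest on 11 reads in ObF1 and 23 reads in LnF1, and it entered the test only through the water libraries. With a pseudocount of 1 CPM its log2 difference was -3.23. The single-library differences were almost equal in the parental groups, at -5.79 in ObF1 and -5.72 in LnF1 for Col8a1, and -4.37 in ObF1 and -4.43 in LnF1 for Col8a2. The smooth muscle and myofibroblast markers fell as well, and their part in this result was not tested. Col10a1, the network collagen of growth plate cartilage, had at most 16 reads and was not tested.

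Beaded type VI is a heterotrimer of the Col6a1, Col6a2 and Col6a3 products, and of the 3 genes 2 fell and 1 did not pass. Col6a3 (chromosome 1, 90765923 to 90843971, minus strand) had 131 CPM in ObF1 and 177 CPM in LnF1 with 1,3BD, against 831 CPM in ObF1 and 1044 CPM in LnF1 with water, a 6.10-fold fall (log2 difference -2.61, SE 0.20, limma adjusted p = 3.96e-06). Col6a2 had 366 CPM in ObF1 and 470.0 CPM in LnF1 with 1,3BD, against 589 CPM in ObF1 and 728 CPM in LnF1 with water, a 1.58-fold fall (log2 difference -0.66, SE 0.20, limma adjusted p = 0.0226) that 5 of 13 alternatives did not pass. Col6a1 (chromosome 10, 76708792 to 76726168, minus strand) had 636 CPM in ObF1 and 842 CPM in LnF1 with 1,3BD, against 851 CPM in ObF1 and 1110.4 CPM in LnF1 with water. Both of its 1,3BD libraries lay below both water libraries, though close to them. The difference did not pass (log2 difference -0.41, SE 0.21, limma adjusted p = 0.141), with an interval of -0.88 to 0.06. Per kilobase of exon, the ratio of Col6a3 to Col6a1 was 0.0780 in ObF1 and 0.0796 in LnF1 with 1,3BD, against 0.369 in ObF1 and 0.355 in LnF1 with water. That ratio was nearly the same in the parental groups and did not overlap between the treatments. The newer chains Col6a4, Col6a5 and Col6a6 were not tested, and Col6a5 had 0 reads in both 1,3BD libraries, against 1 read in ObF1 and 34 reads in LnF1 with water.

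**Figure D3:**
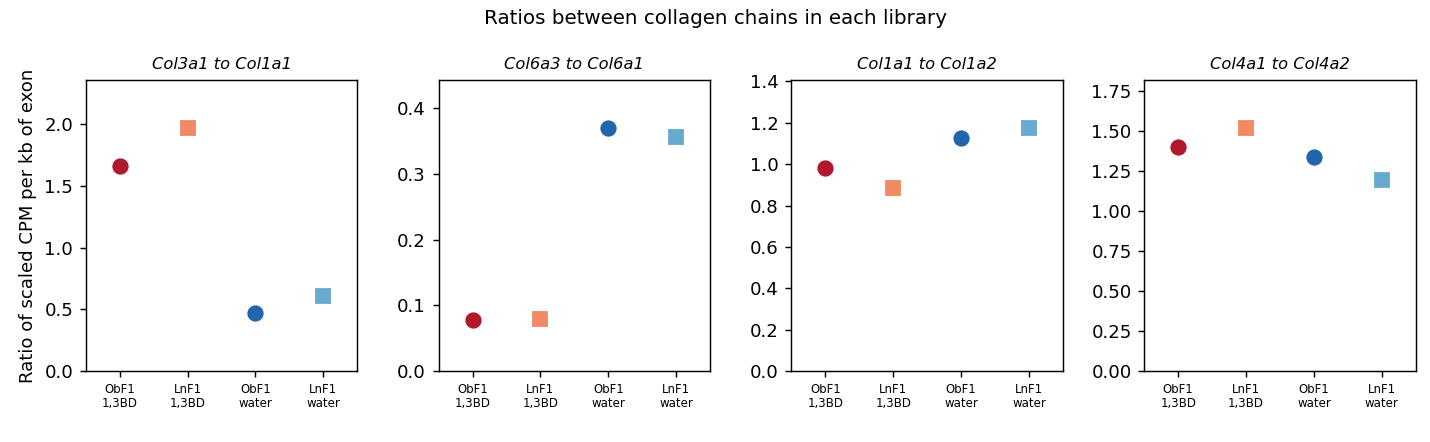
Ratio of the level per kilobase of exon between pairs of chains, 1 point for each library. Col3a1 to Col1a1 is 1.66 and 1.97 in the 1,3BD libraries and 0.469 and 0.606 in the water libraries, and Col6a3 to Col6a1 is 0.0780 and 0.0796 with 1,3BD and 0.369 and 0.355 with water.

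Basement membrane type IV fell in 1 of 5 tested chains (20%), near the 24.8% of all genes tested, with 0 higher. Col4a1 and Col4a2 encode the chains of the ubiquitous type IV network and were by far its most abundant genes. Col4a1 (chromosome 8, 11198423 to 11312826, minus strand) had 2791 CPM in ObF1 and 3858 CPM in LnF1 with 1,3BD, against 3970.0 CPM in ObF1 and 2491 CPM in LnF1 with water. The order of the treatments was opposite in ObF1 and LnF1, and the fitted difference did not pass (log2 difference 0.06, SE 0.30, limma adjusted p = 0.881), with an interval of -0.60 to 0.72. Col4a2 (chromosome 8, 11312805 to 11449287, plus strand) had 1947 CPM in ObF1 and 2479 CPM in LnF1 with 1,3BD, against 2893 CPM in ObF1 and 2035 CPM in LnF1 with water. As for Col4a1, ObF1 with water was the highest and LnF1 with 1,3BD the next, and the difference did not pass (log2 difference -0.14, SE 0.27, limma adjusted p = 0.685), with an interval of -0.73 to 0.44. Col4a5, mutated in the kidney disease Alport syndrome in humans, had 138 CPM in ObF1 and 197 CPM in LnF1 with 1,3BD, against 373 CPM in ObF1 and 252 CPM in LnF1 with water, a 1.86-fold fall (log2 difference -0.89, SE 0.26, limma adjusted p = 0.0184) that 3 of 13 alternatives did not pass. Its neighbour Col4a6 had 2.92 CPM in ObF1 and 5.06 CPM in LnF1 with 1,3BD, against 8.73 CPM in ObF1 and 5.14 CPM in LnF1 with water, and did not pass (log2 difference -0.79, SE 0.39, limma adjusted p = 0.126). Col4a4 was near the limit of testing at 1.35 CPM in ObF1 and 1.65 CPM in LnF1 with 1,3BD, against 0.652 CPM in ObF1 and 0.552 CPM in LnF1 with water, and did not pass (log2 difference 1.21, SE 0.48, limma adjusted p = 0.0587). It passed as higher with edgeR on the recovered reads (adjusted p = 0.0453) and with library totals (limma adjusted p = 0.0292). Col4a3 was not tested.

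Among the remaining types, 2 of 4 tested members fell and 2 did not pass. Col18a1, which holds the endostatin fragment at its end, had 13.01 CPM in ObF1 and 23.7 CPM in LnF1 with 1,3BD, against 139 CPM in ObF1 and 59.1 CPM in LnF1 with water, a 5.13-fold fall (log2 difference -2.36, SE 0.54, limma adjusted p = 0.0279) that did not pass without the ObF1 1,3BD library. Col15a1, its closest relative, had 25.7 CPM in ObF1 and 80.3 CPM in LnF1 with 1,3BD, against 172 CPM in ObF1 and 41.5 CPM in LnF1 with water. The ObF1 water library was the highest and the ObF1 1,3BD library the lowest, with both LnF1 libraries between them, and the fitted difference did not pass (log2 difference -0.89, SE 1.59, limma adjusted p = 0.728), with an interval of -11.92 to 10.13. Col7a1, which makes the anchoring fibrils of skin, had 8.59 CPM in ObF1 and 29.5 CPM in LnF1 with 1,3BD, against 9.82 CPM in ObF1 and 11.8 CPM in LnF1 with water. The LnF1 1,3BD library stood above the other 3, and the difference did not pass (log2 difference 0.56, SE 0.35, limma adjusted p = 0.214). Without the ObF1 1,3BD library it passed as higher (limma adjusted p = 0.00956). Col28a1, a chain related to type VI and known from peripheral nerve, had 2.51 CPM in ObF1 and 5.02 CPM in LnF1 with 1,3BD, against 29.4 CPM in ObF1 and 67.3 CPM in LnF1 with water, a 12.2-fold fall (log2 difference -3.61, SE 0.25, limma adjusted p = 2.26e-06).

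The 4 transmembrane chains Col13a1, Col17a1, Col23a1 and Col25a1 were not tested and had at most 31 reads in any library. Col9a1 and Col26a1 had 0 reads in all 4 libraries, which allows up to 3 reads each, or 0.108 to 0.130 CPM. Among the remaining untested fibril-associated chains, Col9a3 had 10 reads in ObF1 and 53 reads in LnF1 with 1,3BD, against 3 reads in ObF1 and 10 reads in LnF1 with water, while Col9a2, Col19a1 and Col22a1 had at most 8 reads.

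Within the collagen reads, the shares of the larger classes were set beside each other. Of all collagen reads, fibrillar chains gave 64.3% in ObF1 and 68.6% in LnF1 with 1,3BD, against 80.4% in ObF1 and 82.03% in LnF1 with water. Basement membrane chains gave 20.8% in ObF1 and 21.4% in LnF1 with 1,3BD, against 10.7% in ObF1 and 8.24% in LnF1 with water. The share of type IV among collagen reads was thus higher in both 1,3BD libraries than in either water library. As a share of all reads, type IV gave 0.512% in ObF1 and 0.742% in LnF1 with 1,3BD, against 0.641% in ObF1 and 0.454% in LnF1 with water, and these groups overlapped. Of collagen reads, fibril-associated chains gave 9.82% in ObF1 and 4.75% in LnF1 with 1,3BD, against 4.35% in ObF1 and 4.04% in LnF1 with water, with ObF1 1,3BD apart from the other 3. Beaded chains gave 4.83% in ObF1 and 4.86% in LnF1 with 1,3BD, against 3.37% in ObF1 and 4.97% in LnF1 with water. For beaded chains the treatments overlapped.

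**Figure D4:**
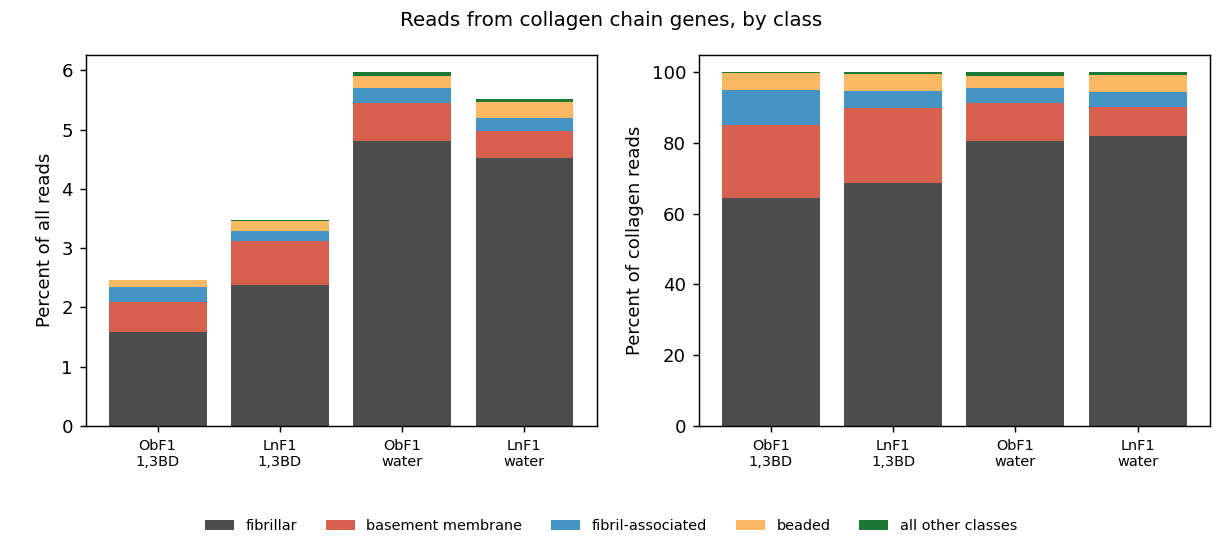
Stacked bars of reads from collagen chain genes by class, as a percent of all reads (left) and of collagen reads (right), 1 bar for each library. Total collagen reads are between 2.46% and 3.47% with 1,3BD and between 5.51% and 5.97% with water, and of collagen reads the basement membrane part is 20.8% and 21.4% with 1,3BD and 10.7% and 8.24% with water.

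Promoter windows of RefSeq (GRCm38.p6), from 250 bases before to 50 bases after each gene's start, were found for 35 members. RefSeq starts can differ from the GENCODE gene limits given above: that of Col1a2 lies downstream, so that its window does not hold the GENCODE start, and that of Col6a1 also lies downstream, with the GENCODE start still inside its window. The windows below are those of genes the results turn on: the falls of type VIII (Col8a1, chr16:57754688-57754987, minus strand; Col8a2, chr4:126286544-126286843, plus strand), type I (Col1a2, chr6:4505368-4505667, plus strand), the unequal type VI chains (Col6a3, chr1:90843922-90844221, minus strand; Col6a1, chr10:76725995-76726294, minus strand), and the paired type IV chains (Col4a1, chr8:11312777-11313076, minus strand; Col4a2, chr8:11312555-11312854, plus strand). Each is written 5′ to 3′ on the gene's own strand, with capitals for any match to a searched motif.
Col8a1: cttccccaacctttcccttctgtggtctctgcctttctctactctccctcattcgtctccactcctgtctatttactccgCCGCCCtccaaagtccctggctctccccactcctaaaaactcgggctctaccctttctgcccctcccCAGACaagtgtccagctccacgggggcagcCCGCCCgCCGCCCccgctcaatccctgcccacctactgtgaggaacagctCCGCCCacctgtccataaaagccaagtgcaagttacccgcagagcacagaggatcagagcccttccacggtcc
Col8a2: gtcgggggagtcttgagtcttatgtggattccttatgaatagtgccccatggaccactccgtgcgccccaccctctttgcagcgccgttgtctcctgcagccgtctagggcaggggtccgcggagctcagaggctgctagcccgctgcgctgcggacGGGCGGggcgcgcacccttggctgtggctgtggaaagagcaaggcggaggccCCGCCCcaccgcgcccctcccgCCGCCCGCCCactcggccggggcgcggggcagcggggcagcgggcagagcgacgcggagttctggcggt
Col1a2: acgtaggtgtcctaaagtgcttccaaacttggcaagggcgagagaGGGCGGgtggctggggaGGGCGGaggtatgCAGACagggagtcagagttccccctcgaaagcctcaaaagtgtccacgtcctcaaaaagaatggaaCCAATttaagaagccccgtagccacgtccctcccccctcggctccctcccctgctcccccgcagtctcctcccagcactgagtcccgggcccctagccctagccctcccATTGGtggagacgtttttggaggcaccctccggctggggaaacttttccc
Col6a3: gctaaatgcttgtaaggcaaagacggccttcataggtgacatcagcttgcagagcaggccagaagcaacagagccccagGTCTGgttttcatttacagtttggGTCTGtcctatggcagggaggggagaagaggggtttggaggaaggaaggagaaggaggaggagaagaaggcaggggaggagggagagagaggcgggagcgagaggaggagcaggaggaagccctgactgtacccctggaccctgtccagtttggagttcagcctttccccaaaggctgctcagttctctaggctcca
Col6a1: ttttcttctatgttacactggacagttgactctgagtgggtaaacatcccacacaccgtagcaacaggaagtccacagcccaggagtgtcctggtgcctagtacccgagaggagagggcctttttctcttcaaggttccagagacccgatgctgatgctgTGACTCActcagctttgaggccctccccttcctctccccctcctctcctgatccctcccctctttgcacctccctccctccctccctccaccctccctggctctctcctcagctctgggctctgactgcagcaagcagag
Col4a1: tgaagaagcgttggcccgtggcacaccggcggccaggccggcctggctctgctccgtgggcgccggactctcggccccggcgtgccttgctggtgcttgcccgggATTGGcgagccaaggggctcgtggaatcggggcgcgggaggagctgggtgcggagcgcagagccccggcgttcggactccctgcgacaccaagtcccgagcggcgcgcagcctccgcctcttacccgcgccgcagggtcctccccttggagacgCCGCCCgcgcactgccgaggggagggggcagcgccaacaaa
Col4a2: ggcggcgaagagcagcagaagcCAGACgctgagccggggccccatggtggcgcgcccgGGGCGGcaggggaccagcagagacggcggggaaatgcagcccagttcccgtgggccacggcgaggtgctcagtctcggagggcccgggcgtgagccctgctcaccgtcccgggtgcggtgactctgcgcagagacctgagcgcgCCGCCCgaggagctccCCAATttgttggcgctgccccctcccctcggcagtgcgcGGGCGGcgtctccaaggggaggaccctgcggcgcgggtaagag
Searched on both strands were the TATA box TATAAA, the NF-Y motif CCAAT, the GC box GGGCGG, the TEAD motif GGAATG, the AP-1 motif TGANTCA, the Smad motif CAGAC and the CArG box, and matches may overlap one another. Col8a1 and Col8a2 each held 4 matches to GGGCGG, Col6a3 had 2 to CAGAC and none to GGGCGG, and Col6a1 had 1 to TGANTCA. The windows of Col4a1 and Col4a2 overlap by 78 bases with identical letters, since the genes start head to head on opposite strands. Among the members that fell, Col1a1, Col5a2 and Col14a1 had no window. Of all 35 member windows, tested or not, 22 held GGGCGG, and a link of any motif to the fall was not tested. GGGCGG was in the windows of 10 of 13 members that fell and 5 of 9 that did not pass, and in 35.7% of all 32851 windows. CAGAC was in 9 of 13 and 5 of 9, and in 49.6% of all windows, and CCAAT in 5 of 13 and 4 of 9, and in 37.4%. TATAAA was in 0 of 13 and 1 of 9, and in 13.6% of all windows. GGAATG was in 2 of 13 and 2 of 9, and in 14.7%. TGANTCA was in 0 of 13 and 1 of 9, and in 7.81%, and the CArG box was in 0 of 13 and 0 of 9, and in 1.63%. A match is a description of letters and not a binding site.

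Other genes of collagen biology, from control of transcription to breakdown, were counted in 6 lists, with log2 differences of 1,3BD minus water. Over all genes tested, 24.8% fell and 19.2% rose, with a median of -0.06, the values to set beside each list. Among the genes called below, P3h2, Omd, Adgrg1 and Mmp16 reached 1 CPM only in the water libraries. Adamts3 and Itga10 did so only in the 1,3BD libraries. Entry to the test thus partly set the calls of these genes. Of 24 tested genes for folding and modification in the endoplasmic reticulum, 10 (41.7%) fell and 2 (8.33%) rose, with a median of -0.41. Serpinh1, the collagen chaperone HSP47, had 799 CPM in ObF1 and 968 CPM in LnF1 with 1,3BD, against 2859 CPM in ObF1 and 2436 CPM in LnF1 with water, a log2 difference of -1.59 (SE 0.24). P3h2, a prolyl 3-hydroxylase, had -2.03 (SE 0.43), the prolyl isomerase gene Fkbp10 -1.48 (SE 0.22) and Sparc, a collagen-binding matrix glycoprotein, -1.15 (SE 0.26). Those that rose were Mia3, needed for export of procollagen from the endoplasmic reticulum, at 1.36 (SE 0.20), and Tmem38b, an ion channel gene, at 0.92 (SE 0.23). Of 14 tested genes for propeptide processing and crosslinking, 8 fell and 2 rose, with a median of -1.26. Tgm2, a transglutaminase, had -4.80 (SE 0.29), the lysyl oxidase Loxl4 -3.10 (SE 0.27), the procollagen C-proteinase enhancer Pcolce -2.11 (SE 0.20) and the procollagen N-proteinase Adamts14 -2.04 (SE 0.29), while Adamts3, another N-proteinase, rose by 1.61 (SE 0.50) and Tll1 by 0.68 (SE 0.25). Lox itself, the main crosslinking enzyme, had 6047 CPM in ObF1 and 3483 CPM in LnF1 with 1,3BD, against 6152 CPM in ObF1 and 4513 CPM in LnF1 with water, and did not pass.

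Of 13 tested fibril regulators, 8 fell and 1 rose, with a median of -1.34, where 24.8% of all genes tested fell and 19.2% rose. Thbs1, a thrombospondin, had -4.00 (SE 0.25), and the small leucine-rich proteoglycans Ogn, Prelp and Fmod had -3.69 (SE 0.26), -2.98 (SE 0.59) and -2.03 (SE 0.20). Tnxb, a tenascin that binds fibrils, was the 1 that rose, at 1.36 (SE 0.24). All 10 tested collagen receptor genes passed, 7 lower and 3 higher, where 44.0% of all genes tested passed. Of these, Adgrg1 reached 1 CPM only in the water libraries and Itga10 only in the 1,3BD libraries, so entry partly set their calls. Itga11, the integrin for fibrillar collagen on fibroblasts, fell by 3.04 on the log2 scale, with 105 CPM in ObF1 and 79.5 CPM in LnF1 with 1,3BD, against 856 CPM in ObF1 and 664 CPM in LnF1 with water, and Adgrg1, Cd44 and Ddr1 had -2.50 (SE 0.41), -1.97 (SE 0.20) and -1.35 (SE 0.29). Ddr2, the discoidin domain receptor of fibroblasts, rose by 1.53 (SE 0.22), with 2048 CPM in ObF1 and 1928 CPM in LnF1 with 1,3BD, against 646 CPM in ObF1 and 729 CPM in LnF1 with water, and the integrin genes Itga10 and Itga2 by 1.33 (SE 0.50) and 1.08 (SE 0.31). Of 13 tested genes of collagen breakdown and its inhibitors, 11 fell and 1 rose. The inhibitor gene Timp3 had 63.3 CPM in ObF1 and 54.1 CPM in LnF1 with 1,3BD, against 2068 CPM in ObF1 and 1919 CPM in LnF1 with water, a log2 difference of -5.09 (SE 0.20); the protease genes Fap, Mmp16 and Mmp15 had -2.27 (SE 0.34), -2.09 (SE 0.46) and -1.76 (SE 0.58), and Ctsl, a lysosomal cathepsin, rose by 1.40 (SE 0.22). The list of collagen gene regulators had 8 (42.1%) lower, 3 (15.8%) higher and 8 not passed of 19. The lowest were Ctgf at -6.10 (SE 0.19), Tgfb3 at -3.22 (SE 0.22), Cyr61 at -3.15 (SE 0.20) and Creb3l1 at -2.17 (SE 0.19), and those that rose were Tgfbr1 at 1.48 (SE 0.19), Cebpb at 0.76 (SE 0.24) and Sp1 at 0.53 (SE 0.19).

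The second comparison set ObF1 against LnF1. No collagen chain gene passed in either direction: of 28 tested, 0 were higher and 0 lower in ObF1, where 0.195% of all genes were called higher and 0.101% lower. At an unadjusted p under 0.05 limma gave 8 members, or 28.6%, and 10.8% of all genes. At that limit edgeR, which called 0 members, gave 8 as well, and 1375 of 12838 genes. With DESeq2, Col14a1 (adjusted p = 0.0157) and Col28a1 (adjusted p = 0.0371) passed as lower, as did 48 of 12838 genes in all. Without a filter on low values limma called 5 of 42 members lower, Col14a1, Col28a1, Col11a2, Col7a1 and Col27a1. In that fit 156 of 26964 genes were called lower. Of the 26 members with a mean of at least 5 CPM, 0 were at least 2-fold higher and 0 lower in ObF1 with both treatments, against 0.440% and 0.273% of all such genes. With 1,3BD alone 6 were 2-fold lower and 0 higher (3.02% and 1.89% of all), and with water alone 1 was lower and 2 were higher (1.40% and 1.81%).

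The 8 members with the smallest p-values, chosen after their values were seen, were 6 with lower and 2 with higher fitted values in ObF1. Col28a1 stood at 2.51 CPM in ObF1 and 5.02 CPM in LnF1 with 1,3BD, and at 29.4 CPM in ObF1 and 67.3 CPM in LnF1 with water (log2 difference -1.08, SE 0.25, limma adjusted p = 0.130). Col14a1 gave -2.42 with 1,3BD and -0.69 with water (log2 difference -1.55, SE 0.39, limma adjusted p = 0.206). Col8a1 was on the other side of 0 from Col8a2, at 0.74 with 1,3BD and 0.80 with water (log2 difference 0.77, SE 0.21, limma adjusted p = 0.206), while Col8a2 had -0.88 and -0.94 with a fitted difference of -0.91. The others were Col11a2 (fitted log2 difference -1.37), Col27a1 (-1.09), Col7a1 (-1.02) and Col12a1 (0.56). For the abundant chains the fitted differences were small, with intervals of -0.69 to 0.52 for Col1a1, -0.98 to 0.20 for Col3a1, -0.55 to 0.76 for Col4a1 and -0.86 to 0.08 for Col6a1.

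The direction of the members' values was split by treatment. With 1,3BD, 24 of 28 members (85.7%) were lower in ObF1, against 48.4% of all genes tested, and the median difference was -0.56. With water, 12 of 28 (42.9%) were lower in ObF1, against 49.8% of all genes, and the median was 0.20. The signs were opposite in 14 of 28 members (50%), where 41.2% of all genes tested had opposite signs, and in 13 of these ObF1 was lower with 1,3BD and higher with water. The same 4 values seen by treatment gave a median difference of 1,3BD minus water of -1.70 in ObF1 and -0.63 in LnF1. In 24 of 28 members (85.7%) the ObF1 value was the lower of these, against 51.5% of all genes tested. The model has no residual degree of freedom for an interaction, so this difference was not tested. Type VI, like type VIII above, gave close values in both parental groups: for Col6a3 the differences of 1,3BD minus water were -2.66 in ObF1 and -2.56 in LnF1, and for Col6a1 they were -0.42 and -0.40.

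**Figure D5:**
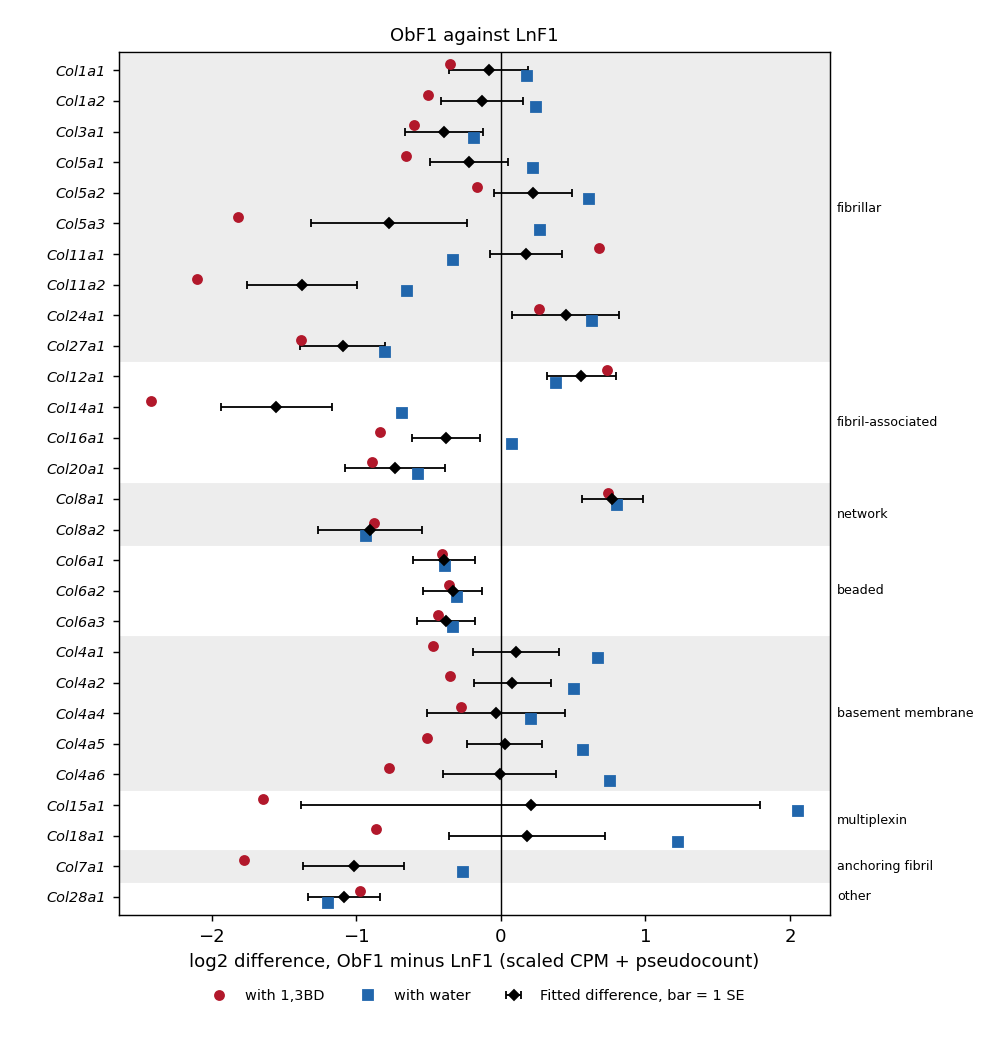
The log2 difference of ObF1 minus LnF1 for each tested member, with circles for 1,3BD, squares for water and a diamond with 1 SE for the fitted value. Of 28 members, 24 circles lie left of 0 and 16 squares lie right of it, with Col15a1 at -1.64 and 2.05 the widest pair.

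In the lists of other collagen genes, 2 members passed for parents, where 0.296% of all genes tested passed. The lists had 24, 14, 13, 10, 13 and 19 genes tested, in the order given above. Tnxb was lower in ObF1, with 13.6 CPM in ObF1 and 40.3 CPM in LnF1 with 1,3BD, and 5.52 CPM in ObF1 and 14.9 CPM in LnF1 with water and a log2 difference of -1.49 (SE 0.24). Ctgf, a matricellular growth factor gene, was higher in ObF1, with 29.2 CPM in ObF1 and 8.57 CPM in LnF1 with 1,3BD, and 2033 CPM in ObF1 and 585 CPM in LnF1 with water and a log2 difference of 1.78 (SE 0.19).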

How the data were processed

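Per the labels' protocols, TRIzol was used for RNA and a KAPA mRNA HyperPrep kit for libraries, 1 from each pool. The submitters' processing notes name mm10, edgeR and DESeq2 without a role; the sources used here do not give the aligner, counter or use of strand. The deposited table holds a signal per gene, counts that the authors divided by a factor per library: 100% of values were whole multiples of the column's smallest value within a relative tolerance of 1e-06, and those multiples were taken as reads, 1 read being worth 0.0359 to 0.0434 CPM. Columns Ln and Ob name no treatment and were matched to water. Members and lists were chosen with earlier results of these data known. limma 3.58.1 (R 4.3.3, mean-variance trend, robust) was fitted to log2(CPM + 0.0796), a pseudocount worth 2 reads, with parents and treatment as additive terms and 1 residual degree of freedom, and tested on simulated data. P-values are Benjamini-Hochberg adjusted over 12838 genes. Fold changes understate those of low genes. Alternatives used edgeR 4.0.16 and DESeq2 1.42.0 on the recovered reads. Coordinates and lengths (basic protein-coding exons) are from GENCODE M21. All tested members are named; from other lists, up to 4 called genes per direction by size. Exons of 7 tested members (Col3a1, Col4a1, Col4a2, Col5a1, Col7a1, Col15a1 and Col20a1) overlap another gene, so their reads are less certain. A marker list is not reported here.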

Additional observations from a re-analysis of the deposited data

Results flagged for a closer look

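Pairs of differences with opposite signs and at least 0.5 on the log2 scale on both sides, a size set after the values were seen, occurred 6 times among the 28 members. None of these was tested, since each difference rests on 2 libraries and the model has no residual for an interaction. Col15a1 with 1,3BD was below water in ObF1 (-2.74) and above it in LnF1 (0.952). Seen by parents, its ObF1 value was below LnF1 with 1,3BD (-1.64) and above it with water (2.05). Both pairs of Col15a1 come from the same libraries and are counted among the 6. Col4a1 with 1,3BD was below water in ObF1 (-0.508) and above it in LnF1 (0.631). Between parental groups, Col18a1 in ObF1 was below LnF1 with 1,3BD (-0.863) and above it with water (1.23). Col4a5 had -0.514 with 1,3BD and 0.566 with water, and its neighbour Col4a6 had -0.773 with 1,3BD and 0.757 with water.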

How the results depend on the processing

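The members that fell with 1,3BD numbered 12 to 19 in the alternatives of pseudocount, filter, scaling, moderation, tool and covariate, and 9 to 16 when 1 library was left out, against 16. Those that rose numbered 1 to 3, against 2; the value was 1 with parents left out of the model and 1 to 3 with a library left out. Of the 18 members that passed, 9 passed in all alternatives that could be run for them, and 0 changed sign. Without the ObF1 water library 8 fell short, the most of any alternative. For parents, 5 members passed as lower without a filter on low values and 2 with DESeq2, and 0 passed in the other alternatives, those with a library left out included. The 19 members that fell are of 42 tested without a filter on low values, where 3848 of 26964 genes fell. The 12 are with library totals, where 2283 of 12838 genes fell. At a mean of at least 5 CPM 26 members were tested, and 28 in the other alternatives. For parents, 156 of 26964 genes passed as lower without a filter and 48 of 12838 with DESeq2. In fits without 1 library the other factor was dropped and the lone library of a group is assumed to vary like the others. Without Col1a1, Col1a2 and Col3a1, the share of reads was 1.23% in ObF1 and 1.59% in LnF1 with 1,3BD, against 2.25% in ObF1 and 1.84% in LnF1 with water. No paired analysis was possible because the labels give no replicate numbers and each group holds 1 library. With 1 library per group, p-values rest on how far a difference failed to repeat and on the error typical of other genes. They do not measure the spread between animals.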

Other observations

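Collagen genes that lie beside each other were looked at in pairs. Col3a1 and Col5a2 end tail to tail on chromosome 1 with 24614 bases between them. Their log2 differences of 1,3BD against water were -0.45 (SE 0.27) for Col3a1, which did not pass, and -1.502 (SE 0.27) for Col5a2, which fell. Col6a1 and Col6a2 lie on the same strand of chromosome 10 with 85161 bases between them and had -0.41 and -0.66, while Col6a3, on chromosome 1, had -2.61. The head-to-head pair Col4a1 and Col4a2 had 0.06 and -0.14, and their level per kilobase of exon kept a ratio of 1.40 in ObF1 and 1.52 in LnF1 with 1,3BD, against 1.34 in ObF1 and 1.19 in LnF1 with water. Col4a6 and Col4a5, head to head on chromosome X with 1308 bases between them, had -0.79 and -0.89, although Col4a5 was 39.6 to 49.9 times as high as Col4a6 per kilobase. These pairs were picked for their position and were not tested against other pairs of genes.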
